A study of Mus musculus with 12 samples.

Results

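The 10 genes described here encode components of the extracellular matrix and of transforming growth factor beta (TGF-beta) signalling, and were measured in whole mouse liver: Col1a1, Col1a2, Col3a1, Col4a1, Sparc, Dcn, Timp1, Tgfb1, Tgfbr2 and Lgals1. They were chosen by name, with earlier results of these data known. Every probe set that the platform annotation gives to exactly 1 of these symbols was kept. This gave 18 of 22626 tested probe sets and 10 of 12393 genes. 6 of the genes had 2 probe sets, Tgfbr2 had 3, and Dcn, Timp1 and Tgfb1 had 1 each. A gene with several probe sets is represented by the one with the highest mean over all 12 arrays, and the others are given beside it.

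The study asked how a plant flavonol in the diet changes liver gene expression in mice with and without cytochrome P450 reductase (POR), on which microsomal P450 enzymes depend for electrons. The 4 groups were POR-null mice on the quercetin diet, POR-null mice on the control diet, wild-type mice on the quercetin diet and wild-type mice on the control diet. All were male, 6 to 8 weeks old and labelled C57BL/6, and all were adapted for 14 days to RM3, a soya-free powdered diet. The quercetin groups then received it for 24 h with 6.2 g of quercetin per kg (the labels also state 7 mg per mouse). There were 3 arrays in a group, and RNA of 3 mice was pooled for every array, so single animals were not resolved. The labels do not say how the Por gene was disrupted or in which cells, and a difference in strain background between the genotypes cannot be told apart from the loss of POR. Por itself was not analysed here.

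Fibrillar collagens I and III form the scaffold of scar tissue in liver, and collagen IV belongs to basement membranes. Hepatic stellate cells are the main makers of this matrix after injury, when they turn into myofibroblasts. TGF-beta drives that change: the ligand binds the type II receptor, which activates the type I receptor, which in turn phosphorylates SMAD proteins that enter the nucleus and bind DNA at sites with the core CAGAC. Galectin-1, the product of Lgals1, is a secreted lectin that binds beta-galactoside sugars on matrix and cell-surface glycoproteins.

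Values are the deposited log2 intensities, which ran from 2.57 to 14.2 with a median of 5.96. They compare 1 probe set between arrays and do not rank genes by abundance. Within a group the arrays had correlations of 0.988 to 0.993 over all probe sets, and array medians lay between 5.93 and 5.99. On the second principal component wild-type control arrays 2 and 3 (-17.7 and -16.2) lay apart from all other arrays, which ran from -5.29 to 16.9. Wild-type control array 1 (12.1) lay within that range. All 10 hepatocyte markers had means at or above the 98.9th percentile of all probe sets, so the labelled tissue matched its markers. Of the 18 probe sets, 9 had a mean above the median of all values. The lowest were Tgfbr2 1422019_at, with a mean at the 3.10th percentile, and Col3a1 1427884_at, with a mean at the 8.62nd percentile.

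Lgals1 and Tgfbr2 were higher in POR-null than in wild-type liver on both diets, and Sparc was higher on the control diet and on average over both diets. The other 7 genes passed the test in no genotype comparison. Averaged over the diets, 5 of the 18 probe sets were higher in POR-null liver and 0 were lower at an adjusted p of 0.05 (limma, Benjamini-Hochberg over all 22626 probe sets). Over all probe sets 4.88% were higher by the same rule and 2.70% were lower. At an unadjusted p of 0.05 the number of higher probe sets was 10 of 18, against 11.4% of all probe sets. The median difference over the 10 genes was 0.24 log2 units, against -0.02 over all genes. Because the genes were chosen with earlier results of these data known, these shares and medians describe the 10 and do not test them as a set. In 4 of the 18 every POR-null array lay above every wild-type array with 6 against 6, a pattern that 1.92% of all probe sets had. These 4 were both Lgals1 probe sets and Tgfbr2 1426397_at and 1425444_a_at. The arrays are whole-liver RNA, so more cells of a type and more RNA per cell cannot be told apart for any of these genes.

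**Figure D1:**
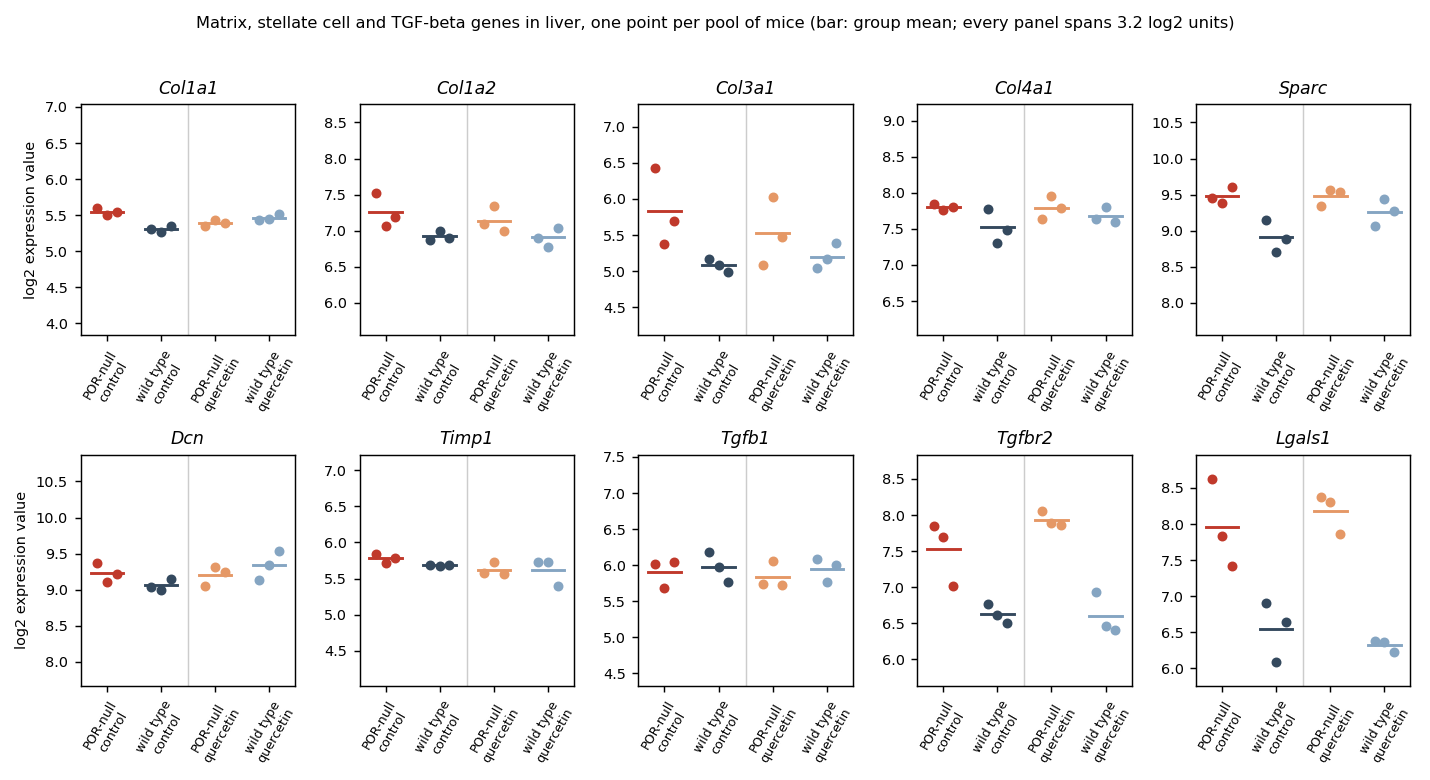
Deposited log2 value (vertical axes, each panel placed at its gene's level and spanning the same range) of the representative probe set of each of the 10 genes in every array, with points for single arrays and horizontal bars for the mean of 3 arrays in each of the 4 groups. The POR-null arrays lie above all wild-type arrays for Lgals1 and Tgfbr2, while for the other 8 genes the 6 POR-null and 6 wild-type arrays overlap.

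On the control diet 4 of the 18 probe sets were higher in POR-null liver, against 0.822% of all probe sets, and 0 were lower, against 0.336%. They belonged to 3 genes, Lgals1 with both its probe sets, Tgfbr2 and Sparc. In 9 of the 18 the POR-null control arrays all lay above the wild-type control arrays, against 8.04% of all probe sets. The control-diet count depended on single arrays. It was 1 when the array left out was number 1 or 2 of POR-null control or number 2 or 3 of wild-type control, and 2 without POR-null quercetin array 2 or 3. It was also 1 when only the control-diet groups were fitted, and the probe set that still passed there was Lgals1 1455439_a_at. Without wild-type control array 1 it was 5. Wild-type control arrays 2 and 3 were the ones apart from all others on the second principal component. On the quercetin diet 3 of the 18 were higher, against 1.75% of all, and 0 were lower, against 0.579%. These were again both Lgals1 probe sets and Tgfbr2 1426397_at. On that diet 6 of the 18 showed no overlap with the POR-null arrays higher, against 11.9% of all. The averaged comparison is built from the same arrays as the diet comparisons and is not a separate line of evidence.

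Among the fibrillar collagens no probe set passed the test. Col1a2, which encodes the alpha-2 chain of collagen I, is represented by 1450857_a_at. It had 7.52, 7.07 and 7.19 in the POR-null control arrays, against 6.87, 6.99 and 6.90 in the wild-type control arrays. With quercetin it had 7.09, 7.34 and 6.99 in POR-null liver, against 6.90, 6.78 and 7.04 in wild-type liver. The genotypes did not overlap on the control diet and overlapped on the quercetin diet. The difference averaged over diets was 0.29 ± 0.09 log2 units (moderated SE, limma adjusted p = 0.0637). It passed the threshold when the 40% dimmest probe sets were left out (adjusted p = 0.0492) and when POR-null control array 2 was left out (0.046). The second Col1a2 probe set, 1423110_at, differed by 0.05 ± 0.09 (adjusted p = 0.788).

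Col3a1, the chain of collagen III, varied widely between arrays of a group, with a residual SD at the 98.4th percentile of all probe sets. Its probe set 1427883_a_at had 6.43, 5.38 and 5.69 in the POR-null control arrays, against 5.17, 5.09 and 4.99 in the wild-type control arrays. POR-null control array 1 was the highest of all 12 arrays, and all POR-null control arrays exceeded the wild-type control ones. In the quercetin groups it had 5.08, 6.03 and 5.47 in POR-null liver, against 5.04, 5.17 and 5.39 in wild-type liver. There the groups overlapped. The control-diet difference was 0.75 ± 0.24 log2 units (adjusted p = 0.146). The averaged difference was 0.54 ± 0.17 (adjusted p = 0.0682). It was past the threshold without POR-null control array 2 (adjusted p = 0.0316) and without POR-null quercetin array 1 (adjusted p = 0.0367). The dimmer Col3a1 probe set 1427884_at differed by -0.01 ± 0.06.

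Col1a1, the alpha-1 chain of collagen I, had a difference of 0.08 ± 0.06 averaged over diets (adjusted p = 0.45). Its probe set 1455494_at had among the smallest spreads on the array, with a residual SD at the 0.323rd percentile. On the control diet it had 5.60, 5.50 and 5.54 in POR-null liver, against 5.31, 5.27 and 5.35 in wild-type liver (difference 0.23 ± 0.09, adjusted p = 0.195). With quercetin it had 5.35, 5.44 and 5.39 in POR-null liver, against 5.43, 5.45 and 5.51 in wild-type liver. The genotypes were apart on the control diet and overlapped on the quercetin diet. The other Col1a1 probe set, 1423669_at, ordered the diets the other way, with 0.14 ± 0.16 on the control diet and 0.31 ± 0.16 on the quercetin diet (adjusted p = 0.719 and 0.338).

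Col4a1, a chain of the basement membrane collagen IV, had 7.84, 7.76 and 7.80 in the POR-null control arrays, against 7.78, 7.30 and 7.48 in the wild-type control arrays at 1426348_at. It had 7.64, 7.95 and 7.79 in the POR-null quercetin arrays, against 7.64, 7.80 and 7.60 in the wild-type quercetin arrays. At this probe set the genotypes overlapped on both diets. Its averaged difference was 0.20 ± 0.08 (adjusted p = 0.175), and without wild-type control array 1 it passed (adjusted p = 0.0419). The second probe set, 1452035_at, gave 0.23 ± 0.10 (adjusted p = 0.188). Its genotypes overlapped on the control diet and were apart on the quercetin diet. There it had 6.67, 6.74 and 6.61 in POR-null liver, against 6.38, 6.20 and 6.48 in wild-type liver (0.32 ± 0.14, adjusted p = 0.272).

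Sparc encodes osteonectin, a matricellular protein that binds collagen and calcium. Its probe set 1416589_at had 9.46, 9.38 and 9.60 in the POR-null control arrays, against 9.15, 8.70 and 8.89 in the wild-type control arrays. On the quercetin diet it had 9.34, 9.56 and 9.53 in POR-null liver, against 9.07, 9.44 and 9.27 in wild-type liver. The POR-null arrays sat within a narrow band on both diets, while the wild-type arrays were lower on the control diet and reached into that band on the quercetin diet. The control-diet difference was 0.57 ± 0.12 log2 units, a 1.48-fold higher level (adjusted p = 0.045). On the quercetin diet it was 0.22 ± 0.12 (adjusted p = 0.396), and the change in the genotype difference between the diets was -0.35 ± 0.18 (adjusted p = 0.816). Averaged over diets Sparc was 0.39 ± 0.09 higher (adjusted p = 0.0139).

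The Sparc call on the control diet stood in 3 of the 12 fits that left out an array, those without wild-type control array 1, wild-type quercetin array 1 or wild-type quercetin array 2. The highest adjusted p, 0.182, came without wild-type control array 2. That call was also lost in 5 of 10 other alternatives. The adjusted p was 0.08 after quantile normalization, 0.0518 with a variance prior without trend, 0.0582 with a block for the replicate number, 0.134 with only the compared groups fitted and 0.0838 for the mean of the probe sets. The averaged call stood in 12 of 12 such fits and was lost after quantile normalization (adjusted p = 0.0564). The second Sparc probe set, 1448392_at, had 8.35, 7.87 and 8.17 in the POR-null control arrays, against 8.13, 7.21 and 6.77 in the wild-type control arrays. Wild-type control array 1 lay inside the POR-null range there. Its difference of 0.76 ± 0.25 did not pass (adjusted p = 0.155).

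Dcn encodes decorin, a small leucine-rich proteoglycan that binds collagen fibrils and TGF-beta. It had 9.37, 9.11 and 9.22 in the POR-null control arrays, against 9.04, 9.00 and 9.15 in the wild-type control arrays. In the quercetin groups it had 9.05, 9.31 and 9.24 in POR-null liver, against 9.14, 9.34 and 9.54 in wild-type liver. The genotypes overlapped on both diets, and the averaged difference was 0.02 ± 0.08 (adjusted p = 0.936, 95% interval -0.15 to 0.18).

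Timp1, an inhibitor of matrix metalloproteinases, had 5.84, 5.72 and 5.78 in the POR-null control arrays, against 5.69, 5.68 and 5.69 in the wild-type control arrays. Its averaged difference was 0.05 ± 0.08 (adjusted p = 0.755, 95% interval -0.11 to 0.21). The wild-type control arrays were almost equal and all POR-null control arrays lay above them, by a mean difference of 0.09 ± 0.11 (adjusted p = 0.723). Both genotypes averaged 5.62 on the quercetin diet.

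Tgfb1, the ligand TGF-beta 1, had 6.01, 5.68 and 6.04 in the POR-null control arrays, against 6.18, 5.97 and 5.76 in the wild-type control arrays. It had 5.74, 6.06 and 5.72 in the POR-null quercetin arrays, against 6.08, 5.77 and 6.00 in the wild-type quercetin arrays. The genotypes overlapped on both diets. The averaged difference was -0.08 ± 0.10 (adjusted p = 0.669), with a 95% interval from -0.30 to 0.13.

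Tgfbr2 encodes the type II receptor that binds this ligand. Its brightest probe set, 1426397_at, had 7.85, 7.70 and 7.02 in the POR-null control arrays, against 6.76, 6.61 and 6.50 in the wild-type control arrays. In the quercetin groups it had 8.06, 7.89 and 7.86 in POR-null liver, against 6.93, 6.46 and 6.41 in wild-type liver. POR-null control array 3 was the lowest POR-null array and still lay above every wild-type array. The difference was 0.90 ± 0.18 on the control diet (adjusted p = 0.0336) and 1.34 ± 0.18 on the quercetin diet (adjusted p = 0.00268). Averaged over diets it was 1.12 ± 0.13 log2 units, a 2.17-fold higher level (adjusted p = 0.000305), at rank 32 of all probe sets by p.

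The control-diet call of Tgfbr2 was lost when the array left out was number 1 or 2 of POR-null control, number 2 or 3 of POR-null quercetin or number 2 or 3 of wild-type control, with adjusted p up to 0.178. The quercetin-diet and averaged calls stood in 12 of 12 fits. The 3 probe sets of Tgfbr2 differed in size. Probe set 1425444_a_at had 6.04, 5.72 and 5.86 in the POR-null control arrays, against 5.45, 5.61 and 5.46 in the wild-type control arrays, and 6.03, 5.73 and 5.78 in the POR-null quercetin arrays, against 5.61, 5.55 and 5.41 in the wild-type quercetin arrays. Its groups were apart on each diet, and its averaged difference was 0.34 ± 0.08 (adjusted p = 0.0186). That call was lost without array 1 of the POR-null control group (adjusted p = 0.056) or array 1 of the POR-null quercetin group (adjusted p = 0.0503). The dim probe set 1422019_at, which stayed between 3.24 and 3.52 on all arrays, differed by 0.04 ± 0.06. The mean of the 3 probe sets was 0.50 log2 units higher in POR-null liver when averaged over diets.

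Lgals1 had the largest differences of the 10 genes. Its probe set 1419573_a_at had 8.63, 7.83 and 7.42 in the POR-null control arrays, against 6.90, 6.09 and 6.64 in the wild-type control arrays. On the quercetin diet it had 8.38, 8.30 and 7.86 in POR-null liver, against 6.38, 6.37 and 6.23 in wild-type liver. Every POR-null array lay above every wild-type array, and the spread between arrays was widest in POR-null liver on the control diet. The difference was 1.42 ± 0.25 on the control diet (adjusted p = 0.0176) and 1.86 ± 0.25 on the quercetin diet (adjusted p = 0.0026). Averaged over diets it was 1.64 ± 0.18 log2 units, a 3.12-fold higher level (adjusted p = 0.000202).

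The second Lgals1 probe set, 1455439_a_at, had 8.34, 7.43 and 7.41 in the POR-null control arrays, against 6.00, 5.16 and 5.72 in the wild-type control arrays. It had 8.11, 8.11 and 7.51 in the POR-null quercetin arrays, against 5.17, 5.25 and 5.07 in the wild-type quercetin arrays. The gap between the genotypes exceeded the range within any group. The difference was 2.10 ± 0.25 on the control diet (adjusted p = 0.00164) and 2.75 ± 0.25 on the quercetin diet (adjusted p = 0.000102). Averaged over diets it was 2.42 ± 0.17, a 5.36-fold higher level (adjusted p = 3.77e-06), at rank 5 of all probe sets. Its control-diet call stood in 12 of 12 fits that left out an array. That of the brighter probe set stood in 8 and was lost when the array left out was number 1 or 2 of POR-null control or number 2 or 3 of wild-type control, with adjusted p up to 0.0974. Both probe sets were past the threshold on the quercetin diet in 12 of 12.

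**Figure D2:**
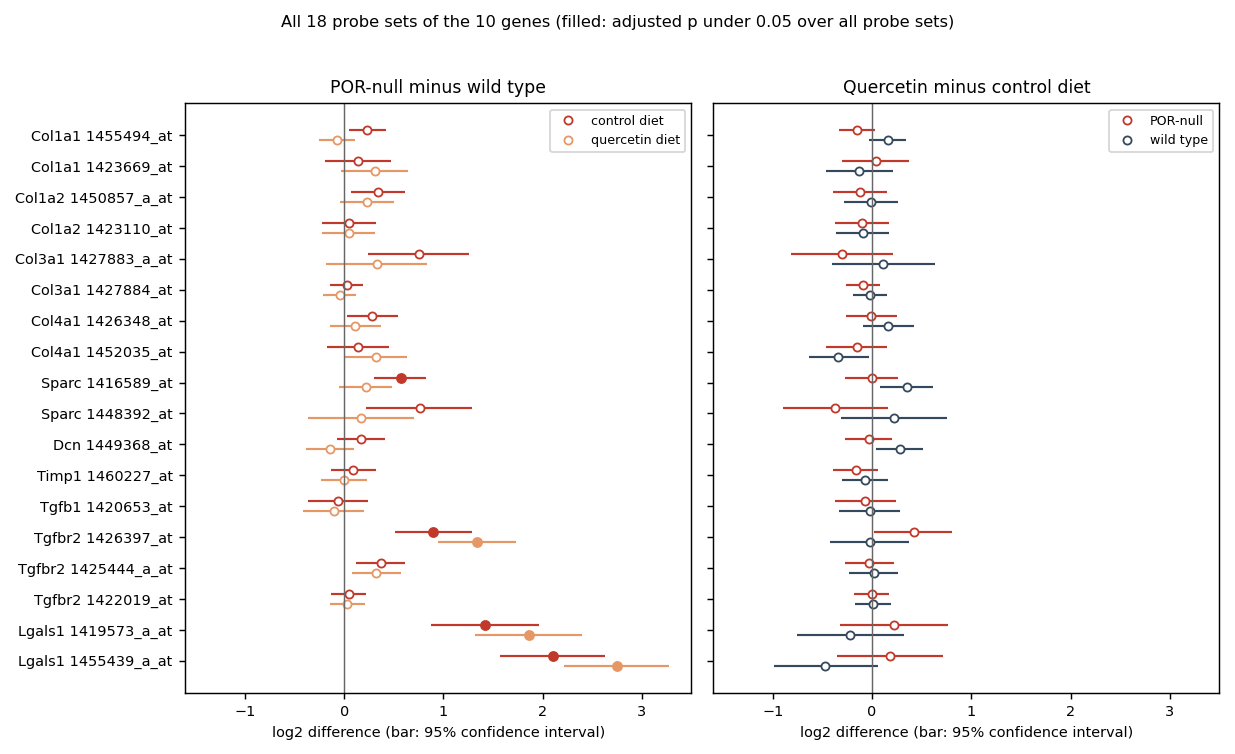
Log2 differences with 95% confidence intervals for the 18 probe sets, POR-null minus wild type on each diet in the left panel and quercetin minus control diet in each genotype in the right panel. Both Lgals1 probe sets and Tgfbr2 1426397_at stand clear of 0 on both diets in the left panel, and no probe set in the right panel passed the test after adjustment.

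The stretches before the annotated gene starts of Tgfbr2 and Sparc, which passed the averaged genotype test, and of Col1a2, which came closest to it among the collagens of the 10, are printed because TGF-beta signalling acts on DNA through SMAD proteins. They are the 250 bases before the start in RefSeq on GRCm38.p6, 5′ to 3′ on the gene's strand, at chr9:116175364-116175613 on the minus strand for Tgfbr2, chr11:55420081-55420330 on the minus strand for Sparc and chr6:4505368-4505617 on the plus strand for Col1a2. Capitals mark CAGAC, the SMAD core, or its reverse complement.
Tgfbr2: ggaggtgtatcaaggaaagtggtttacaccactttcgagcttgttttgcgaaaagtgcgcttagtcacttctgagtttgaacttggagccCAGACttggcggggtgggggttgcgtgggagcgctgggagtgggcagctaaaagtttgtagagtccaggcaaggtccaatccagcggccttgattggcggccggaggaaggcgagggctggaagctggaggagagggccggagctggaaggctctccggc
Sparc: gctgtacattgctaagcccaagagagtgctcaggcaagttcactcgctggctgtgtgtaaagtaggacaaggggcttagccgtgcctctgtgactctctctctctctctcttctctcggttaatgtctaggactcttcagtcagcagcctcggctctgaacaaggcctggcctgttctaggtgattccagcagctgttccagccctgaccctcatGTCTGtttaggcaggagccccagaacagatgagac
Col1a2: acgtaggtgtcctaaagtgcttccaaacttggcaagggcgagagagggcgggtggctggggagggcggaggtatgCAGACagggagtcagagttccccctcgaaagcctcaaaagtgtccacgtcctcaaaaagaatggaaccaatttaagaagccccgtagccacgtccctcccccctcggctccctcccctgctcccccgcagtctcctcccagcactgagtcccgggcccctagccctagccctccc
Each window held 1 match, at 160 bases before the start for Tgfbr2, 35 for Sparc and 175 for Col1a2. A promoter was matched by symbol for 7 of the 10 genes in the RefSeq table. Of these 7, Col3a1 held 2 matches to CAGAC, and Col4a1, Tgfb1 and Timp1 held 0. Of all 32851 promoters there, 42.2% held CAGAC on either strand within the same length, so a match is common.

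Other promoter motifs were searched on both strands in the same windows. CCAAT was found in the windows of Tgfbr2 (2 matches), Col1a2, Col4a1 and Timp1 (1 each), and in 33.8% of all promoters. GGGCGG, the GC box, was found 5 times for Tgfb1, 2 times for Col1a2 and 1 time for Timp1, and in 32.7% of all promoters. TATAAA was found only for Col3a1 among the 7, and in 12.4% of all promoters. TGANTCA, the AP-1 motif, was found in none of the 7 windows and in 6.75% of all promoters. A match describes the letters of a window and not a bound site.

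With quercetin none of the 18 probe sets passed the threshold in either genotype. In POR-null liver 0 of 18 passed in limma, against 0.00% of all probe sets, and 1 of 18 had an unadjusted p under 0.05, against 6.99% of all. In wild-type liver 0 of 18 passed, against 0.00% of all, and 3 of 18 had an unadjusted p under 0.05, against 8.58% of all. The lowest adjusted p over all probe sets was 0.446 in POR-null and 0.0783 in wild-type liver.

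In POR-null liver the value with an unadjusted p under 0.05 was that of Tgfbr2 1426397_at, with 8.06, 7.89 and 7.86 on the quercetin diet, against 7.85, 7.70 and 7.02 on the control diet. The difference was 0.42 ± 0.18 (adjusted p = 0.7), and the other Tgfbr2 probe sets showed -0.03 ± 0.11 at 1425444_a_at and no shift beyond their spread at 1422019_at. Lgals1 1419573_a_at differed by 0.22 ± 0.25 with quercetin in POR-null liver (adjusted p = 0.881) and by -0.22 ± 0.25 in wild-type liver (adjusted p = 0.845).

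The wild-type values with an unadjusted p under 0.05 were those of Sparc, Dcn and the second Col4a1 probe set. Sparc had 9.07, 9.44 and 9.27 on the quercetin diet, against 9.15, 8.70 and 8.89 on the control diet, a difference of 0.35 ± 0.12 (adjusted p = 0.479). Dcn had 9.14, 9.34 and 9.54 on the quercetin diet, against 9.04, 9.00 and 9.15 on the control diet, a difference of 0.28 ± 0.11 (adjusted p = 0.527). Both ranges overlapped by 1 array, with the lowest quercetin array under the highest control array. Col4a1 1452035_at had 6.38, 6.20 and 6.48 on the quercetin diet, against 6.55, 6.92 and 6.59 on the control diet, a difference of -0.34 ± 0.14 (adjusted p = 0.56). The other Col4a1 probe set differed by 0.16 ± 0.12, so the probe sets of this gene differed in sign. The quercetin comparisons share their arrays with the genotype comparisons.

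The test of whether the quercetin difference depended on genotype passed for 0 of 18 probe sets in limma, against 0.00% of all, with 1 of 18 at an unadjusted p under 0.05, against 6.17% of all. That probe set was Col1a1 1455494_at. Its quercetin minus control difference was -0.15 ± 0.09 in POR-null liver and 0.16 ± 0.09 in wild-type liver, and the groups did not overlap in either genotype. The difference between those differences was -0.31 ± 0.12 (adjusted p = 0.803). The second Col1a1 probe set gave 0.17 ± 0.22 in the opposite direction (adjusted p = 0.91). For Lgals1 the genotype difference was larger on the quercetin diet by 0.44 ± 0.36 at 1419573_a_at and by 0.65 ± 0.35 at 1455439_a_at, neither of which passed (adjusted p = 0.855 and 0.825).

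The wider matrix and TGF-beta gene lists held few further calls. Over all genes, in the averaged genotype comparison, 5.08% were higher and 2.86% lower after adjustment, and 23.6% had an unadjusted p under 0.05 in either direction. In the averaged genotype comparison 0 of 12 other collagens passed the limma test, with 3 at an unadjusted p under 0.05, and their median difference was -0.01 log2 units. Col6a3, a chain of the microfibrillar collagen VI, had the lowest p (0.21 ± 0.07, adjusted p = 0.071), and Col18a1, whose cleavage releases endostatin, had -0.15 ± 0.05 (adjusted p = 0.11). Of 17 basement membrane genes 0 passed, with 1 at an unadjusted p under 0.05. That gene was Col4a2, the partner chain of Col4a1, with 0.28 ± 0.08 (adjusted p = 0.0527). Of 24 glycoproteins and small proteoglycans 0 passed, with 3 at an unadjusted p under 0.05, and the lowest p belonged to the fibronectin gene Fn1 (-0.29 ± 0.10, adjusted p = 0.0864). Of 21 matrix proteases and inhibitors 0 passed, with 4 at an unadjusted p under 0.05, and the lowest p belonged to Timp2, a relative of Timp1 (-0.22 ± 0.07, adjusted p = 0.0576).

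Collagen processing enzymes gave 2 of 12 higher and 0 lower, against 5.08% higher and 2.86% lower over all genes. Plod1, a lysyl hydroxylase that modifies collagen chains, averaged 8.81 in POR-null and 8.25 in wild-type liver, a difference of 0.55 ± 0.09 (adjusted p = 0.00171). P4hb, the protein disulfide isomerase that serves as the beta subunit of prolyl 4-hydroxylase and also folds other proteins, averaged 12.03 in POR-null and 11.71 in wild-type liver (0.33 ± 0.06, adjusted p = 0.00356). P4ha1, a catalytic subunit of the same enzyme, had -0.45 ± 0.14 (adjusted p = 0.0634). Serpinh1, the collagen chaperone, had -0.07 ± 0.07 and the crosslinking enzyme Lox had -0.08 ± 0.08, and neither passed. The median of the list was -0.06.

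Around Tgfbr2 the other parts of the pathway showed no call. Of 11 TGF-beta ligands and latency genes 0 passed, with 2 at an unadjusted p under 0.05, both lower. Of 17 other receptors and SMADs 0 passed, with 2 at that threshold, both lower. In the receptor and SMAD list 3 of 17 differences were above 0, against 43.2% of all genes, and the median was -0.08. The ligand list had its lowest p at Ltbp3, which holds latent TGF-beta in the matrix (-0.31 ± 0.10, adjusted p = 0.0653). The type I receptor Tgfbr1 had 0.13 ± 0.10 (adjusted p = 0.468), the co-receptor Tgfbr3 had -0.04 ± 0.07 (0.806) and Smad7, an inhibitory SMAD, had -0.10 ± 0.09 (0.511). Of 17 TGF-beta targets and regulators 0 passed, with 2 at an unadjusted p under 0.05, and the median was -0.09. The target with the lowest p was Tgfbi, a matrix protein named for its induction by TGF-beta, with 0.31 ± 0.10 (adjusted p = 0.0749), while Ccn2, the connective tissue growth factor, had -0.20 ± 0.15 (0.455).

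Around Lgals1, 3 of 8 genes of the galectin list were higher on average over diets and 0 were lower, against 5.08% higher and 2.86% lower over all genes. On the control diet alone 1 of 8 was higher, against 0.920% of all genes, and on the quercetin diet alone 0 of 8, against 1.86%. Lgals3bp, a secreted glycoprotein that binds galectins and is not itself one, averaged 8.42 in POR-null and 7.87 in wild-type liver (0.56 ± 0.09, adjusted p = 0.00297). Lgals8 averaged 8.88 in POR-null and 8.52 in wild-type liver (0.37 ± 0.08, adjusted p = 0.0136). Lgals9 averaged 10.81 in POR-null and 10.47 in wild-type liver (0.34 ± 0.08, adjusted p = 0.0225). Lgals3, which macrophages also express, had 0.56 ± 0.17 and did not pass (adjusted p = 0.0589).

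**Figure D3:**
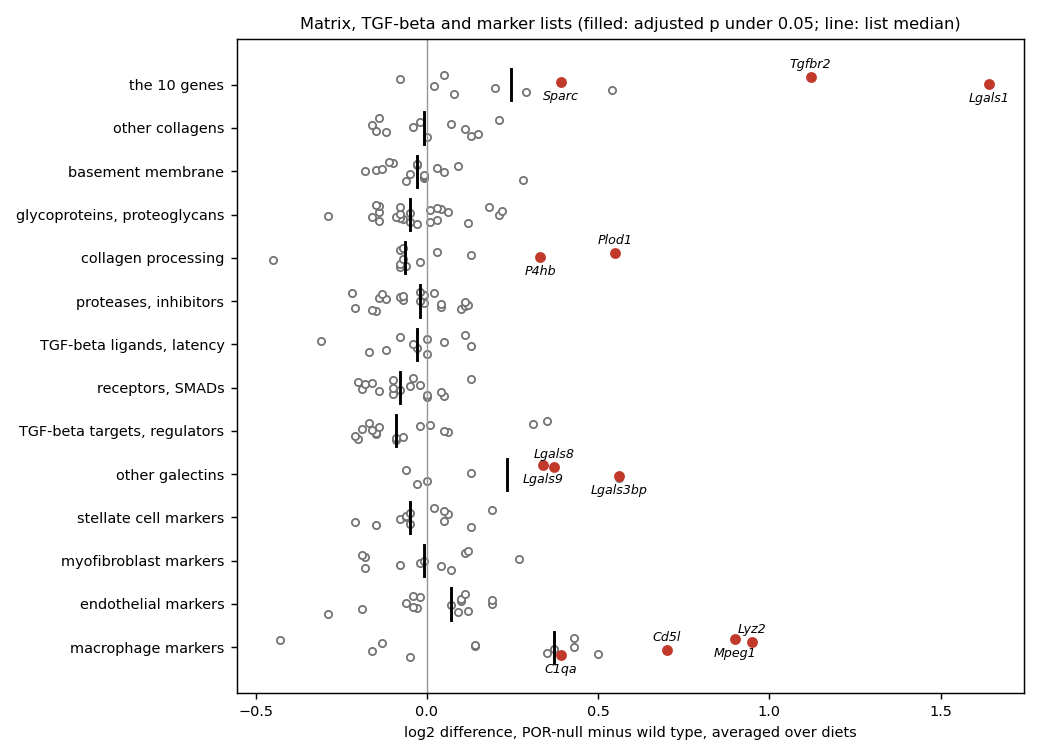
Log2 difference averaged over diets, POR-null minus wild type (horizontal axis), for each gene of the 10 studied genes and of 13 other lists (rows), with filled points for an adjusted p under 0.05 and a vertical line at each list's median. Lgals1 (1.64) and Tgfbr2 (1.12) lie furthest to the right, and the called genes of the other lists drawn are in the collagen processing, galectin and macrophage rows.

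Markers of the cells that make or surround this matrix were read on the same arrays. Of 13 stellate cell markers 0 passed the averaged genotype test in limma, with 1 at an unadjusted p under 0.05, and the median was -0.05. That marker was Gfap, an intermediate filament protein, with -0.21 ± 0.07 (adjusted p = 0.0867). Of 11 myofibroblast markers 0 passed. With an unadjusted p under 0.05 there were 2, 1 higher and 1 lower, and the median was -0.01. Acta2, the smooth muscle actin of activated stellate cells, and Vim were not those 2. Acta2 had 0.07 ± 0.09 (adjusted p = 0.712) and Vim had 0.12 ± 0.10 (adjusted p = 0.499). Of 15 endothelial markers 0 passed, with 3 at an unadjusted p under 0.05, 1 higher and 2 lower, and the median was 0.07. Over all genes the share at that unadjusted threshold was 23.6%.

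Averaged over diets, 4 of 15 macrophage markers were higher in POR-null liver and 0 lower, against 5.08% higher and 2.86% lower over all genes. The median was 0.37. On the control diet alone 1 of 15 was higher, against 0.920% of all genes, with a median of 0.45. On the quercetin diet alone 1 of 15 was higher, against 1.86%, with a median of 0.25. Mpeg1, a pore-forming protein of macrophages, averaged 8.52 in POR-null and 7.62 in wild-type liver (0.90 ± 0.14, adjusted p = 0.00207). Lyz2, the lysozyme of myeloid cells, had 0.95 ± 0.25 (adjusted p = 0.0326), Cd5l had 0.70 ± 0.19 (0.0371) and C1qa had 0.39 ± 0.11 (0.0451). Adgre1, a surface receptor of macrophages, had -0.05 ± 0.10 and Marco had -0.43 ± 0.21, and neither passed.

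The mean of the macrophage list, as a deviation from the mean of all 12 arrays, ran from 0.01 to 0.30 in POR-null control arrays, against -0.43 to -0.01 in wild-type control arrays. It ran from 0.08 to 0.29 in POR-null quercetin arrays, against -0.25 to 0.39 in wild-type quercetin arrays. The genotypes were apart on the control diet, but wild-type control array 1 (-0.01) lay close to the lowest POR-null control array (0.01). Wild-type control arrays 2 and 3 (-0.43 and -0.40) lay further below. These 2 arrays were also the ones apart on the second principal component. On the quercetin diet they overlapped through wild-type array 3 (0.39), while wild-type arrays 1 and 2 (-0.25 and -0.21) lay below every POR-null array. Whether macrophage RNA has a part in the differences of Lgals1, Tgfbr2 and Sparc was not tested.

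Hepatocyte markers leaned the other way from the macrophage list, with 1 call. Averaged over diets 1 of 10 was lower in POR-null liver and 0 were higher, 3 were lower and 0 higher at an unadjusted p under 0.05, and the median was -0.10. The called gene was Pck1, an enzyme of gluconeogenesis, which averaged 11.05 in POR-null and 11.41 in wild-type liver (-0.36 ± 0.10, adjusted p = 0.0343). On the quercetin diet 0 of 10 passed in limma, 4 were lower and 0 higher at an unadjusted p under 0.05, against 8.30% and 9.33% of all genes, and the median was -0.21. The list mean ran from -0.18 to 0.01 in POR-null quercetin arrays, against 0.05 to 0.10 in wild-type quercetin arrays, so these groups did not overlap. On the control diet it ran from -0.10 to 0.03 in POR-null arrays, against -0.06 to 0.06 in wild-type arrays, and the groups overlapped. Whether these hepatocyte marker values have a part in the differences of Lgals1, Tgfbr2 and Sparc was not tested.

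**Figure D4:**
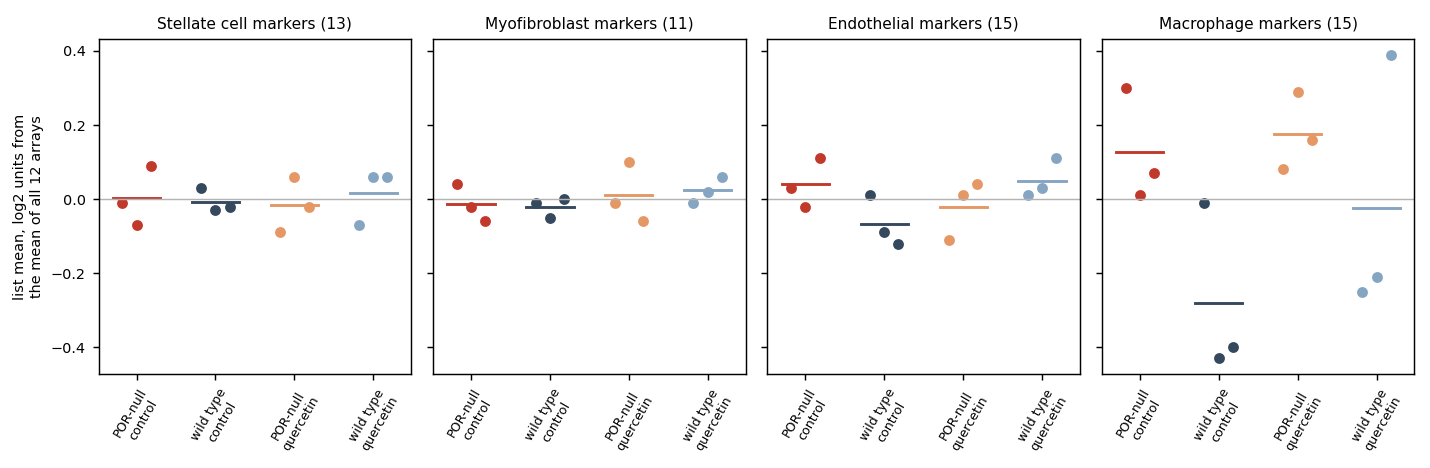
Mean deviation of each marker list from its mean over all 12 arrays (vertical axis, log2 units) for stellate cell, myofibroblast, endothelial and macrophage markers, with points for single arrays and bars for the mean of 3 arrays per group. The macrophage panel spans -0.43 to 0.39 and the other panels stay near 0.

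Across the 12 arrays the deviations from the group means, which leave out the genotype and diet differences, were compared between genes as a description. All points share array and RNA pool. The collagens Col1a2 and Col3a1 had r = 0.84, Col1a1 and Col3a1 had r = 0.81, and Col1a1 and Dcn had r = 0.94. The deviations of Col1a1 were very small, with a residual SD of 0.0442 log2 units (0.323rd percentile of all probe sets), which limits what its correlations can show. Sparc followed Col4a1 (r = 0.85) and not Col1a2 (r = -0.11). Tgfbr2 and Lgals1 had r = 0.66 with each other, and Tgfbr2 had r = 0.06 with Col3a1.

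Over all genes with a mean above the median of all values, the one most like Lgals1 in these deviations was Trim21 (r = 0.96), followed by Aldh1a7 and Aldh4a1 (0.93 each). For Tgfbr2 it was Blcap (0.98), followed by Thap4 and Aass (0.93 each), and for Sparc it was Akr1c20 (0.91), followed by Kifc2 (0.89). For Dcn it was Ifit3 (0.97), for Col4a1 it was Bace2 (0.95) and for Tgfb1 it was Prpf19 (0.96). The collagen genes Col1a2 and Col3a1 were most like Rsad2 and Angptl6 (0.94 each), Col1a1 was most like Adgre5 (0.96) and Timp1 was most like Slc35e1 (0.87). The search covered 7393 or 7394 candidate genes for each of the 10, and only genes with the highest r are named. With few arrays, the best of that many candidates can have a high r without any link between the genes. How high the best r of unrelated genes would be was not tested. The named genes therefore describe these arrays and are not shown to vary together with the 10.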

How the data were processed

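Total RNA of whole liver, pooled from 3 mice per sample, was hybridised to Affymetrix 430A arrays, with 3 arrays for each of 4 groups taken from the sample titles. The range of the deposited values shows a log2 scale. MAS5 and RMA are named, per the submitters' processing notes, and which of them the authors used for the deposited log2 values is not given in the sources used here. No further normalization was applied. Of 22690 probe sets 64 AFFX controls were left out. Symbols came from the platform annotation (20380 probe sets with 1 symbol, 691 with several, 1555 with none), matched by gene identifier to RefSeq for 20351 probe sets.

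Group means over all 12 arrays were fitted with limma 3.58.1 in R 4.3.3, with moderated variances and an intensity trend, two-sided tests and Benjamini-Hochberg adjustment over 22626 probe sets at 0.05. For a contrast of 2 groups the median half-width of the 95% interval was 0.24, and the number of arrays limits it. Since RNA was pooled, p-values reflect the spread of pools and not of single mice. The fit was tested on simulated data.

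The genes and lists were chosen with earlier results of these data known. All probe sets of the 10 genes are accounted for. List genes are named where they passed the averaged genotype test, and for lists without a call up to 3 genes with the lowest p are named. In the receptor and SMAD, myofibroblast and endothelial lists no gene was named by lowest p. Tgfbr1, Tgfbr3, Smad7, Ccn2, P4ha1, Serpinh1, Lox, Lgals3, Acta2, Vim, Adgre1 and Marco fall outside this rule and were chosen after their values were seen. Alternatives were a filter on dim probe sets, quantile normalization, subtracted array medians, other variance priors, array weights, fits of the compared groups alone, a block for the replicate number, gene-level values, and leaving out each array. Figures were drawn with matplotlib 3.10.9.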

Additional observations from a re-analysis of the deposited data

How the results depend on the processing

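With only the groups compared in the fit, 1 probe set passed on the control diet in place of 4 (Lgals1 1419573_a_at had an adjusted p of 0.102 and Tgfbr2 1426397_at 0.106). With the mean of the probe sets per gene, 1 gene passed on the control diet and 3 on average over diets, and 3 passed on average with the highest probe set per gene, where probe sets had given 5; these settings count genes. Leaving out each array gave 1 to 5 on the control diet, 4 to 7 on average, 3 throughout on the quercetin diet, and 0 for quercetin in either genotype and for the interaction. Whether the numbers of the replicates pair the arrays could not be told from these data. Correlations of deviations between arrays of the same number ran from 0.04 to 0.24 between genotypes and from -0.17 to 0.12 between diets. With the replicate block the counts were 3 on the control diet, 3 on the quercetin diet, 5 on average and 0 elsewhere. The control-diet call lost with that block was that of Sparc (adjusted p = 0.0582). Both Lgals1 probe sets and Tgfbr2 1426397_at kept their direction and their calls on the quercetin diet and on average in every alternative fit. So did both genes with gene-level values. The averaged call of Tgfbr2 1425444_a_at was lost in 2 of 12 fits that left out an array, and it had no call on the quercetin diet. Differences that changed sign were all in comparisons where that gene had no call. Dcn averaged over diets was -0.07 after quantile normalization and -0.03 to 0.06 without single arrays. With array medians subtracted, quercetin in POR-null gave 0.01 for Col4a1 and 0.02 for Sparc, and with array weights it gave 0.00 and 0.03. Array weights gave -0.02 for Timp1 between genotypes on the quercetin diet and 0.02 for the Tgfb1 interaction. With the mean of probe sets, Col1a1 between genotypes on the quercetin diet was 0.12, quercetin in wild type was -0.09 for Col4a1 and 0.00 for Tgfbr2, and the Col4a1 interaction was 0.01. Without single arrays the genotype difference of Tgfb1 on the control diet ran from -0.17 to 0.05, of Timp1 on the quercetin diet from -0.11 to 0.06 and of Timp1 on average from -0.01 to 0.08. Quercetin in POR-null ran from -0.22 to 0.01 for Col1a2, -0.08 to 0.07 for Col4a1, -0.05 to 0.07 for Sparc, -0.09 to 0.04 for Dcn and -0.05 to 0.55 for Lgals1. Quercetin in wild type ran from -0.08 to 0.05 for Col1a2, -0.13 to 0.04 for Timp1, -0.13 to 0.08 for Tgfb1 and -0.19 to 0.07 for Tgfbr2. The interaction ran from -0.21 to 0.02 for Col1a2 and from -0.16 to 0.06 for Tgfb1. The causes of these changes were not tested. Probe sets among the 40% dimmest, including those of Col1a1 and Col3a1, had no value under that filter. Probe sets near the lowest values of the array cannot show small differences, and 3 arrays per group limit all of them.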

Other observations

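Exocrine pancreas markers were uneven between arrays. The mean of 8 such genes, as a deviation from the mean of all arrays, was 2.35 log2 units in POR-null quercetin array 3 and lay between -1.25 and 1.00 in the other arrays. No gene of this list passed the genotype or quercetin tests. Without that array the calls of Lgals1 and Tgfbr2 on the quercetin diet and on average over diets stood. Of 10 lymphocyte and neutrophil markers, Nkg7, a granule protein of natural killer and cytotoxic T cells, averaged 5.69 in POR-null and 6.05 in wild-type liver (-0.36 ± 0.08, adjusted p = 0.0122), and the other 9 did not pass.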
